A study of Mus musculus with 6 samples.

Results

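The genes described here are the zinc finger genes *Zfp600* to *Zfp999*, all protein-coding genes of the GENCODE M21 annotation of GRCm38 whose symbol is Zfp followed by a number from 600 to 999 and nothing else. There were 171 of them among 21951 protein-coding genes. H3K4me3, the trimethylation of lysine 4 of histone H3 that sits at the start of active and poised genes, was mapped by ChIP-seq in 2 mouse cell lines. Scid.adh.2C2 represents T-cell progenitors and goes back to a pro-T tumor that arose in CB17-Prkdc<scid> mice, and 230-238 is a B-cell progenitor line transformed with Abelson virus. Each line was given 2 H3K4me3 ChIP libraries and 1 input library, and the labels give no treatment. Each stands for its lineage as 1 transformed cell line, and nothing in the labels says that its libraries came from separate cultures.

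The authors deposited 1 peak list for each line, in which both ChIP libraries are combined, with 15513 peaks in Scid.adh.2C2 and 19604 in 230-238. Neither list gives values per library or read counts. Depth and the spread between libraries are therefore unknown, no test was made, and an unmarked promoter is only one that the authors' thresholds left without a peak. A promoter was called marked when a peak overlapped the 2500 bp on either side of any annotated transcription start site (TSS). The labels were compared with markers of each lineage. All 10 T-lineage markers had a promoter peak in Scid.adh.2C2, against 4 of 10 in 230-238. Of 10 genes taken as markers of the B-lineage line, 9 were marked in 230-238. In Scid.adh.2C2 3 of the 10 were marked, *Vpreb1*, *Pou2af1* and *Rag1*. *Rag1* went against the list, with a peak of 16.5-fold in Scid.adh.2C2 and none in 230-238. Of 6 markers of myeloid cells and fibroblasts, none was marked in Scid.adh.2C2 and 1, *Col1a1*, was marked in 230-238.

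Most proteins of this family carry an array of zinc fingers, short loops held by a zinc ion, each of which contacts a few bases of DNA. Many also carry a KRAB domain at the N-terminus, which recruits TRIM28 (KAP1) and through it the H3K9 methyltransferase SETDB1, heterochromatin proteins and DNA methylation. KRAB zinc finger proteins are best known for silencing transposable elements, and their genes lie in clusters that grew by repeated duplication, so that neighbours can be almost identical in sequence. The members without a KRAB domain include several transcription factors with roles in lymphocytes and in development.

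Translated coding sequences of the annotation gave a KRAB A box in 123 of the 171 members and none in 48. The median number of fingers was 11, with up to 33, and 7 members had no finger of the pattern searched. The sequences around the start sites show how unlike the promoters of these genes can be, and 300 bases are printed for 8 members, 5′ to 3′ on the strand of the gene, from 250 bases before the TSS to 50 bases after it, on GRCm38.p6. They are RefSeq promoters, except that of *Zfp935*, which was read from the genome at the GENCODE TSS because its RefSeq promoter lies outside the peak. Capitals mark CpG dinucleotides.

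The first pair comes from promoters marked in both lines. *Zfp935* (chr13:62558462-62558761, minus strand) lies under the highest peak of any member, and *Zfp790* (chr7:29815822-29816121, plus strand) is the highest of those whose promoter is not repeated elsewhere in the genome.
Zfp935: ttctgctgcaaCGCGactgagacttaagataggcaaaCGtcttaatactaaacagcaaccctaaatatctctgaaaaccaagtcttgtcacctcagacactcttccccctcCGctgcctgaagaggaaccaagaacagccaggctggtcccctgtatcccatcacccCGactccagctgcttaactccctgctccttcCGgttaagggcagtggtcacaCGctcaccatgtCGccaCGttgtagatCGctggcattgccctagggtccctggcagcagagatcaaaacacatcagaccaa
Zfp790: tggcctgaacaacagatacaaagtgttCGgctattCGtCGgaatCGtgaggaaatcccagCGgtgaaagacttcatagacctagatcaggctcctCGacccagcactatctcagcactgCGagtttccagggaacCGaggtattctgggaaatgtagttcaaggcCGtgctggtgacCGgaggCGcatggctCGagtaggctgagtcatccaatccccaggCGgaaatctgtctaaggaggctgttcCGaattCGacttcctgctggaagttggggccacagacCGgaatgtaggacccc

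The next pair comes from members marked in 1 line only and is the highest for which a RefSeq promoter was matched, *Zfp799* in Scid.adh.2C2 (chr17:32830212-32830511, minus strand) and *Zfp775* in 230-238 (chr6:48601757-48602056, plus strand). They hold 6 and 24 CpG dinucleotides. *Zfp608*, which had a higher peak in 230-238 than *Zfp775*, is named only.
Zfp799: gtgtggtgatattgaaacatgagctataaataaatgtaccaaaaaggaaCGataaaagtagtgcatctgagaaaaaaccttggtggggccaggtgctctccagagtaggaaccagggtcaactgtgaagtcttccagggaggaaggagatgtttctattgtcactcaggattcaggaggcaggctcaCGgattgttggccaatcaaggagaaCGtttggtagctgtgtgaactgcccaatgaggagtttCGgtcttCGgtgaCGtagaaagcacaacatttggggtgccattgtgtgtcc
Zfp775: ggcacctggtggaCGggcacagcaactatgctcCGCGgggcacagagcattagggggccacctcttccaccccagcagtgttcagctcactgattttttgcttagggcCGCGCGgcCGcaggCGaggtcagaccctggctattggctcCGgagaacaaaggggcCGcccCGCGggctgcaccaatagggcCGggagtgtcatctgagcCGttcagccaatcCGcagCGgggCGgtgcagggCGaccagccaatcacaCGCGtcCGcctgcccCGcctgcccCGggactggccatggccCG

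The last 4 are *Zfp819* (chr7:43606919-43607218, plus strand), unmarked in spite of 20 CpG dinucleotides, *Zfp600* (chr4:146156577-146156876, plus strand) and *Zfp933* (chr4:147848369-147848668, minus strand), an unmarked and a marked member of the same array on chromosome 4, and *Zfp966* (chr2:175931051-175931350, minus strand), whose 300 bases are letter for letter those of *Zfp967*. *Zfp790*, *Zfp600*, *Zfp933* and *Zfp966* were chosen after their values were seen.
Zfp819: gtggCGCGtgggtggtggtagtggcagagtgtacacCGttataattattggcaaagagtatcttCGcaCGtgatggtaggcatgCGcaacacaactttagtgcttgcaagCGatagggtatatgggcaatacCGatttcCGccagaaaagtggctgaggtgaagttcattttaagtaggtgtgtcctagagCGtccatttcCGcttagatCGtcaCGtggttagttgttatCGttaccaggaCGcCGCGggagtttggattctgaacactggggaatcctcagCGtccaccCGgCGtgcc
Zfp600: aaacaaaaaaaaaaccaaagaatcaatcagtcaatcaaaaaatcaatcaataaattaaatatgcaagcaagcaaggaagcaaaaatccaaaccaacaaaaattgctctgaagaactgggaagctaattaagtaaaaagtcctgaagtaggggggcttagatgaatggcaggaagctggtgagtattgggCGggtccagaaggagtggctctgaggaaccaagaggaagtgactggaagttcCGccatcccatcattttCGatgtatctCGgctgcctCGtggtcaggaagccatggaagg
Zfp933: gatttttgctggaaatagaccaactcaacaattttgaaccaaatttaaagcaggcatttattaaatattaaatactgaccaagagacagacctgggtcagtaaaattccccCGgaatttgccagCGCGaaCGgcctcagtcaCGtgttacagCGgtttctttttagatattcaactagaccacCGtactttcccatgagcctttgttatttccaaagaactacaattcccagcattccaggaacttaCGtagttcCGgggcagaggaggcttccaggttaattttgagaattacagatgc
Zfp966: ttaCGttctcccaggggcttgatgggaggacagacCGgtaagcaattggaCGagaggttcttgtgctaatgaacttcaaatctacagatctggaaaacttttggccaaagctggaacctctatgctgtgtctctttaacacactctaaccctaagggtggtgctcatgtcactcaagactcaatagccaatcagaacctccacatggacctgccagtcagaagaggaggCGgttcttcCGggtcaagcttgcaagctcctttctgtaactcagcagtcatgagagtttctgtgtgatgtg

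H3K4me3 marked most of these genes, and mostly the same ones, in the T- and the B-lineage line. In Scid.adh.2C2, 111 of 171 members were marked (64.9%, 95% Wilson interval 57.5 to 71.7), against 45.5% of all protein-coding genes. In 230-238, 106 were marked (62.0%, interval 54.5 to 68.9), against 48.2% of all. Both lines marked 99 members (57.9%, against 42.2% of all), and neither line marked 53 (31.0%, against 48.6%). The 99 are 83.9% of the 118 marked in any line, close to the 82.0% over all protein-coding genes. The intervals cover counting error only, and neighbouring members are not independent. The lower numbered genes *Zfp1* to *Zfp599*, the part of the family most like these, numbered 194, of which 74.7% were marked in Scid.adh.2C2, 75.3% in 230-238 and 17.5% in neither. Of those marked in any line, 81.9% were marked in both.

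Within the series of numbers the marked share was lowest at the end. Of *Zfp600* to *Zfp699*, 74.4% were marked in Scid.adh.2C2 and 72.1% in 230-238. For *Zfp700* to *Zfp799* the shares were 81.6% and 73.7%, and for *Zfp800* to *Zfp899* both were 63.0%. Of the 63 members from *Zfp900* to *Zfp999*, 49.2% were marked in Scid.adh.2C2 and 47.6% in 230-238. These high numbers include the arrays on chromosomes 2 and 4 that are described further on.

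Peaks at marked members were about as high as at other genes. The height is the authors' fold enrichment over background at the highest promoter peak, which was compared only within a list. In Scid.adh.2C2 the folds of the 111 marked members ran from 7.94 to 40.9, with a median of 26.0 and quartiles of 20.1 and 31.5, and the median over all marked protein-coding genes was 27.1. In 230-238 the 106 folds ran from 6.16 to 33.9, with a median of 21.0 and quartiles of 16.2 and 24.6, against a median of 21.7 over all. Peaks under 10-fold were few among members and among all marked genes. They were found at 1 of 111 members in Scid.adh.2C2 (0.90%, against 2.92% of all) and 3 of 106 in 230-238 (2.83%, against 3.28%).

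Their peaks were narrower in the median than those of all genes, as were those of *Zfp1* to *Zfp599*. The median width was 1828 bp in Scid.adh.2C2, against 2091 bp over all marked protein-coding genes, and 1973.5 bp in 230-238, against 2278 bp. At *Zfp1* to *Zfp599* the medians were 1918 and 2010.5 bp. Peaks wider than 3000 bp were found at 9.91% of marked members in Scid.adh.2C2 (16.4% of all marked genes) and at 17.9% in 230-238 (26.1% of all). The summit lay a median of 223 bp from the nearest TSS in Scid.adh.2C2 and 264.5 bp in 230-238. Most marked members also had the promoter peak to themselves. It reached the promoter of another protein-coding gene at 20 of 111 members in Scid.adh.2C2 (18.02%, against 30.2% of all marked genes) and at 19 of 106 in 230-238 (17.9%, against 29.9%).

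The 2500 bp limit decided few calls. Of members marked in Scid.adh.2C2, the peaks farthest from a TSS were those of *Zfp626*, 1744 bp away, and *Zfp663*, 1266 bp away, and the nearest peaks outside the window were 3333 bp from *Zfp957* and 4721 bp from *Zfp869*. In 230-238 the corresponding distances were 1117 bp for *Zfp626* and 485 bp for *Zfp683* inside, and 4591 bp for *Zfp869* and 11971 bp for *Zfp811* outside. The unmarked members were mostly far from any peak, with a median distance from TSS to nearest peak of 85650 bp for the 60 unmarked in Scid.adh.2C2 and 86339 bp for the 65 unmarked in 230-238.

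**Figure D1:**
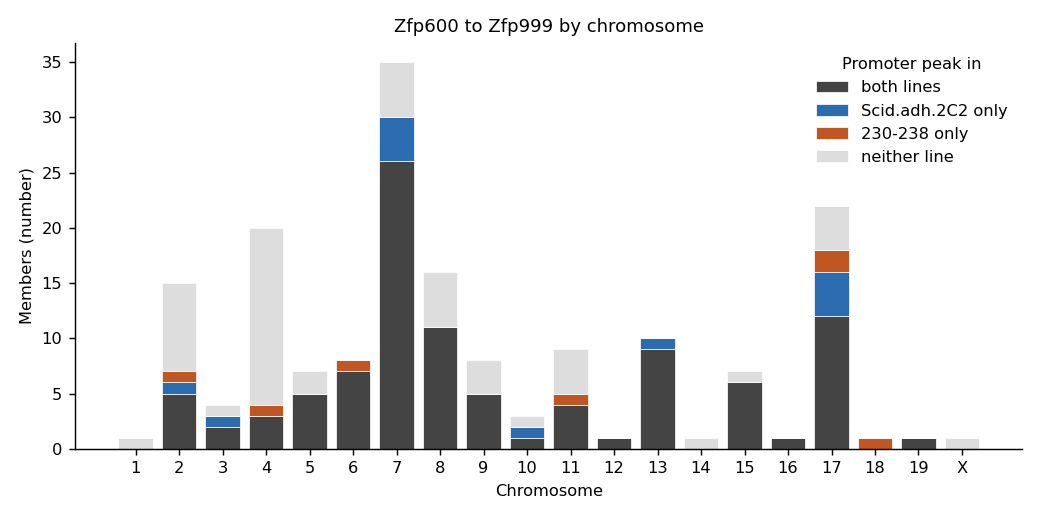
Number of members on each chromosome (y axis, genes), divided by the lines in which a promoter peak was found. Chromosome 7 holds the most members, 35, of which 26 were marked in both lines, and on chromosome 4 neither line marked 16 of 20.

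Marking was uneven between chromosomes. Chromosome 7 carries 35 members, of which 30 were marked in Scid.adh.2C2 and 26 in 230-238, while the shares of all protein-coding genes on it were 38.4% and 41.1%. Chromosome 17 carries 22, with 16 and 14 marked (50.5% and 54.1% of all its protein-coding genes), and chromosome 13 carries 10, with 10 and 9 marked (49.2% and 49.5% of all). At the other end stood chromosome 4, with 3 and 4 marked of 20 members although 47.0% and 49.5% of all its protein-coding genes were marked. On chromosome 2, 6 of 15 members were marked in each line (40%), close to the 44.8% and 47.7% of all its protein-coding genes. All 8 members on chromosome 6 were marked in 230-238 and 7 of them in Scid.adh.2C2, against 42.3% and 38.2% of all its protein-coding genes.

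Members were called clustered when the starts of neighbours lay at most 500000 bp apart. There were 17 clusters of 3 or more, which together hold 101 members. Of these, 68.3% were marked in Scid.adh.2C2 and 61.4% in 230-238. Of the 54 members with no other member within that distance, 57.4% and 61.1% were marked. Marked and unmarked members were not spread evenly over the clusters. In 6 of the 17 all members were marked in both lines, and in 1 none was.

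In the largest cluster most members had no called peak. It runs from *Zfp990* to *Zfp933* on chromosome 4 (chr4:145510759-147848366) and holds 17 members in 2.34 Mb, all with a KRAB A box. No peak was found at 15 of them in either line, and the nearest peak to any of the 15 was 70315 bp away in Scid.adh.2C2 and 70303 bp in 230-238. The 2 marked members are the last in the row. *Zfp984* had a peak of 16.7-fold and 1525 bp in Scid.adh.2C2. In 230-238 it had 2 peaks, the higher of 9.10-fold and 321 bp. *Zfp933* had one of 17.8-fold and 1936 bp in Scid.adh.2C2 and of 27.1-fold and 2314 bp in 230-238. Thus *Zfp984* was among the lowest marked promoters in both lines (percentiles 11.0 and 2.32 among all marked protein-coding promoters), whereas *Zfp933* was at percentile 13.4 in the T-lineage line and 83.7 in the B-lineage line. Of 5 other protein-coding genes in the interval, 1 was marked in each line.

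Much of the promoter sequence of this array occurs more than once in the genome. To measure how repeated a promoter is, the 32-base stretches within 500 bp of the most upstream TSS were looked up in the assembly, and the percentage that occur only once was taken. In the 15 unmarked members it ran from 0% to 52.9%, with a median of 13.2%. It was 47.1% at *Zfp984* and 99.8% at *Zfp933*. The RefSeq promoters of 11 members of the array were 40.3% to 94.4% identical in pairs, with a median of 71.6%, and the closest pair was *Zfp600* and *Zfp979*. The paper describes ChIP-seq reads longer than 32 bases, so a read that holds a repeated stretch may still be placed. The percentage is therefore not the share of the promoter to which reads can be mapped. A read whose whole sequence occurs more than once cannot be placed at one locus. How the ChIP-seq alignment treated such reads is not given in the sources used here. The part of this in the absence of peaks was not tested.

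The members at the far end of chromosome 2 were divided into unmarked and marked ones. From *Zfp968* to *Zfp973*, 6 neighbours (*Zfp968*, *Zfp965*, *Zfp969*, *Zfp966*, *Zfp967* and *Zfp973*) had no peak in either line, and not one 32-base stretch around their TSS occurs once. The interval from *Zfp968* to *Zfp966* (chr2:175372436-175931100) held no peak at all and none of its 5 other protein-coding genes was marked. The next 4 members, *Zfp970*, *Zfp972*, *Zfp971* and *Zfp931* (chr2:177464733-178078476), were all marked in both lines, as were in each line 3 of the 6 other protein-coding genes between them. *Zfp971* was the highest, at 28.2-fold in Scid.adh.2C2 and 25.6-fold in 230-238. *Zfp972* had peaks of 20.3- and 17.7-fold and *Zfp931* of 19.1- and 17.2-fold, and *Zfp970* of 11.0- and 18.6-fold. Their promoters were also repeated, with 11.3% to 32.6% of 32-base stretches occurring once. That is above the 0% of the 6 unmarked neighbours and within the range of the unmarked members on chromosome 4. Whether reads from other copies entered the peaks called in such sequence was not tested. Their ratios of observed to expected CpG dinucleotides, 0.17 to 0.23, were lower than those of the 5 unmarked neighbours with a RefSeq promoter, 0.28 to 0.29. Across the members outside the chromosome 4 array and these 10 genes, 72.9% of 144 were marked in Scid.adh.2C2 and 69.4% in 230-238.

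**Figure D2:**
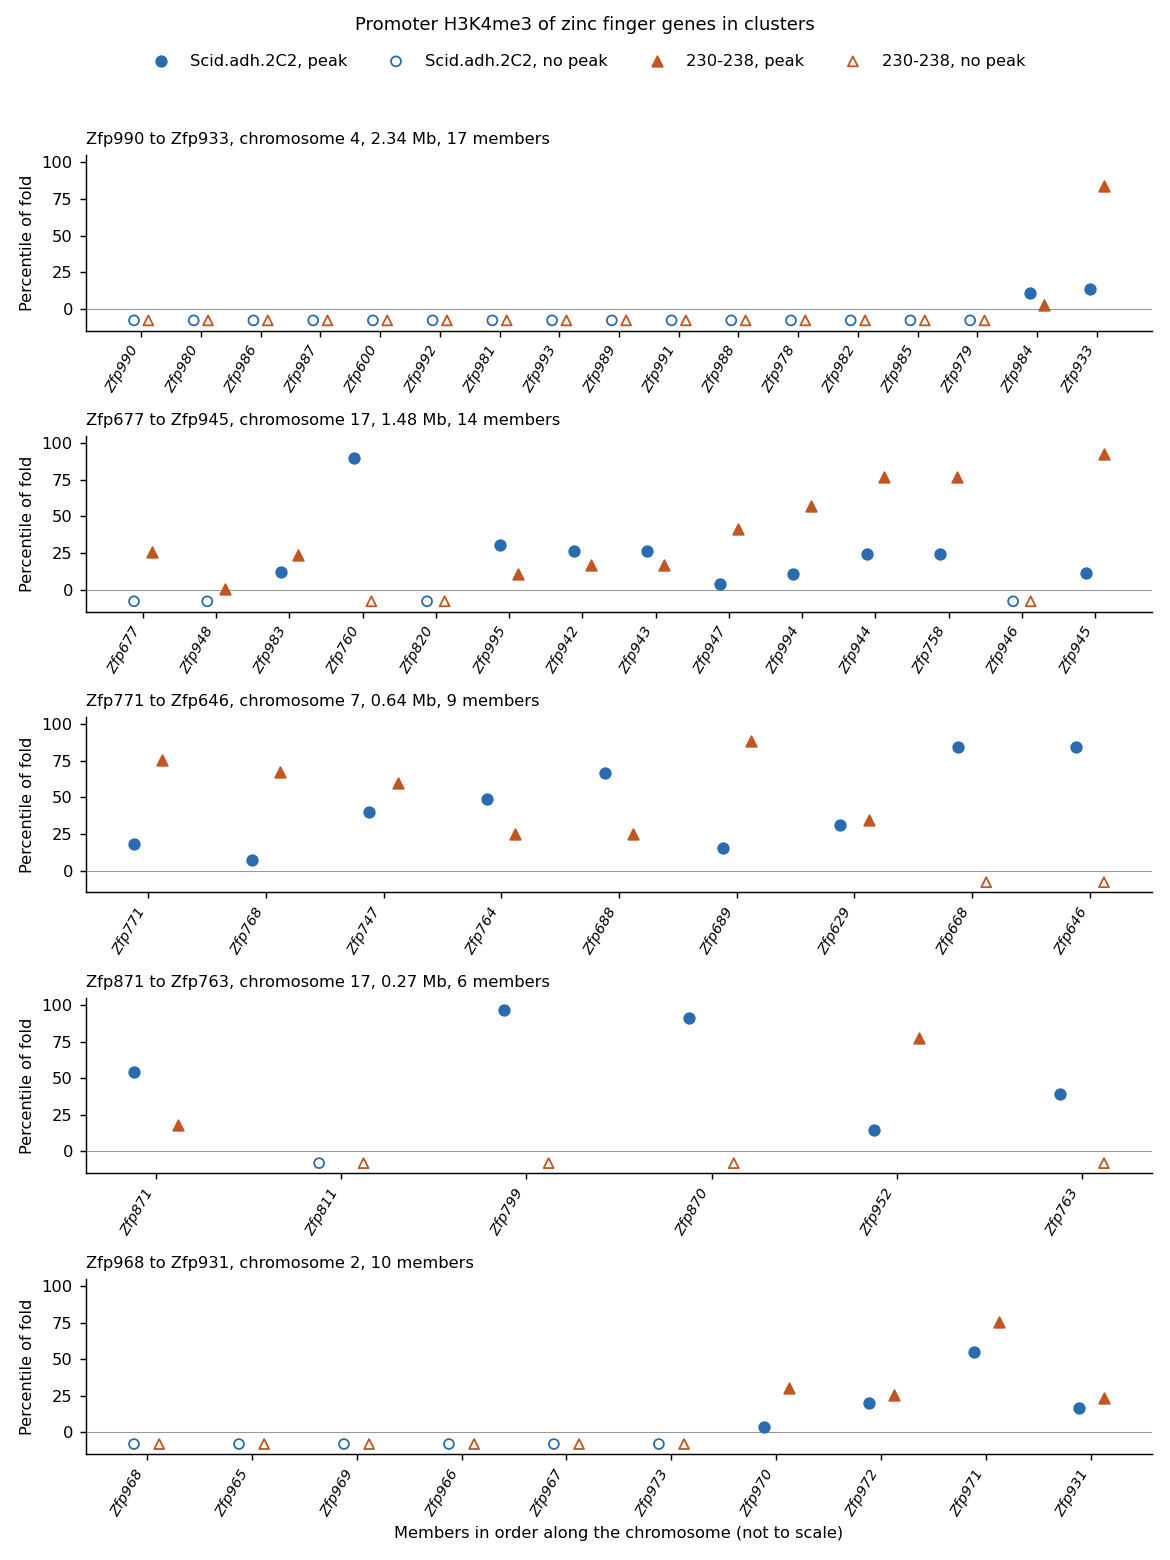
Members of 5 stretches in their order along the chromosome (x axis), with the percentile of the highest promoter peak's fold among all marked protein-coding promoters of the line (y axis). Filled circles are Scid.adh.2C2, filled triangles 230-238, and open symbols below 0 are members without a peak. In the chromosome 4 array the last 2 of 17 members are filled, and on chromosome 2 the last 4 of 10.

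Other clusters were marked throughout or differed between the lines. On chromosome 7, *Zfp771* to *Zfp646* (chr7:127244274-127885996) holds 9 members in 0.64 Mb, all of them marked in Scid.adh.2C2 and 7 in 230-238. The 2 that differed, *Zfp668* and *Zfp646*, share 1 peak. On chromosome 17, *Zfp677* to *Zfp945* (chr17:21383748-22867134) holds 14, with 10 marked in Scid.adh.2C2 and 11 in 230-238. Here *Zfp760* was marked in Scid.adh.2C2 only, *Zfp677* and *Zfp948* in 230-238 only, and *Zfp820* and *Zfp946* in neither. A second cluster on chromosome 17, *Zfp871* to *Zfp763* (chr17:32765496-33033402), showed the largest imbalance of the 17. Of its 6 members 5 were marked in Scid.adh.2C2 and 2 in 230-238, *Zfp871* and *Zfp952*. The other marked members of this cluster, *Zfp799*, *Zfp870* and *Zfp763*, had a peak in the T-lineage line alone. Of 3 other protein-coding genes in the interval, 2 were marked in Scid.adh.2C2 and 1 in 230-238. The whole interval held 7 peaks in Scid.adh.2C2 and 3 in 230-238, so the imbalance was not limited to the members.

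The highest of the members marked in both lines were ranked by their mean percentile over the lines. *Zfp934* and *Zfp935*, neighbours on chromosome 13, share the top peak, of 40.9-fold in Scid.adh.2C2 and 33.9-fold in 230-238 (percentiles 97.2 and 98.7). That peak is only 1023 and 1004 bp wide, and 16.6% and 17.0% of the 32-base stretches under it occur once. Whether reads from other copies entered it was not tested either. The next 4 all have KRAB A boxes and less repeated promoters. *Zfp790* had 35.2- and 32.6-fold, *Zfp715* 37.1- and 28.0-fold, *Zfp719* 32.8- and 31.9-fold, and *Zfp950* 38.9- and 24.6-fold. *Zfp790*, *Zfp715* and *Zfp719* lie on chromosome 7 and *Zfp950* on chromosome 19. The 4 lowest were *Zfp773* (12.4- and 11.0-fold), *Zfp984*, *Zfp975* (19.2- and 10.1-fold) and *Zfp873* (18.01- and 12.7-fold).

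The order of the folds was hardly shared between the lines. Over the 99 members marked in both, Spearman's rho of the folds was 0.12, and over 9261 protein-coding genes marked in both it was 0.28. Over 131 genes of *Zfp1* to *Zfp599* it was 0.14, so the low value was not particular to the members. These are descriptions across genes, which are not independent, and some members share a peak. At some members the highest peak lies at a different place in each line. The percentile differed by over 50 points between the lines at 19 of the 99 members (19.2%, against 15.6% of all genes and 20.6% of *Zfp1* to *Zfp599*). *Zfp945* stood at 17.0-fold (percentile 11.6) in Scid.adh.2C2 and at 29.6-fold (percentile 92.9) in 230-238. In the other direction *Zfp865* stood at 36.3-fold (89.7) and 15.0-fold (14.7), and *Zfp712* at 32.7-fold (77.8) and 12.5-fold (7.47). *Zfp865* shares its peak with *Ccdc106*. These 3 were named after their values were seen, and without values per library it cannot be said whether such gaps exceed the spread between replicates.

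**Figure D3:**
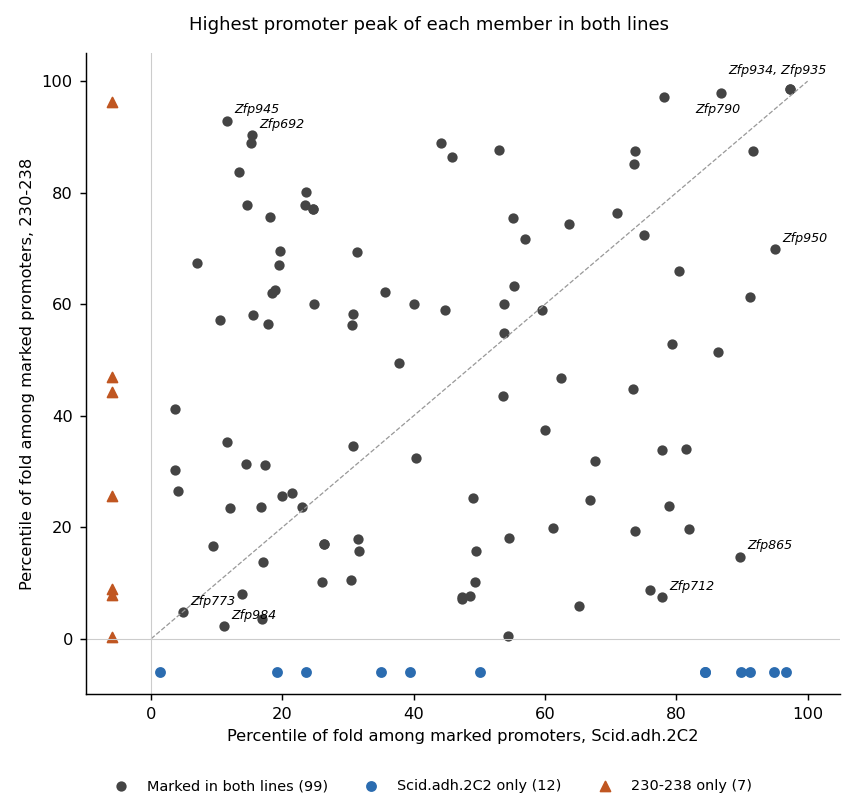
Percentile of the fold of the highest promoter peak in Scid.adh.2C2 (x axis) and 230-238 (y axis) for each of the 99 members marked in both lines (black). Blue points below 0 are the 12 members marked in Scid.adh.2C2 only and orange triangles left of 0 the 7 marked in 230-238 only, and the black points spread over most of the square (rho 0.12).

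Widths were shared to a larger degree. Spearman's rho of the peak widths between the lines was 0.69 over the 99 members and 0.58 over all genes marked in both. Over *Zfp1* to *Zfp599* it was 0.59. The peak was wider in 230-238 at 68 of 99 members (68.7%, against 68.3% of all). The highest peak was taken separately in each line. At some members, such as *Zfp617*, *Zfp638* and *Zfp983*, it is therefore not the same peak in both lines. The widest promoter peak of a member in Scid.adh.2C2 was that of *Zfp830*, 3894 bp, followed by the peak of *Zfp668* and *Zfp646*, 3669 bp. In 230-238 the widest was 8041 bp, at *Zfp608*, followed by *Zfp672* with 4649 bp and *Zfp706* with 4318 bp. *Zfp830*, a gene of RNA processing and genome stability, shares its peak with *Cct6b*, and *Zfp672* shares its own with *Sh3bp5l*.

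**Figure D4:**
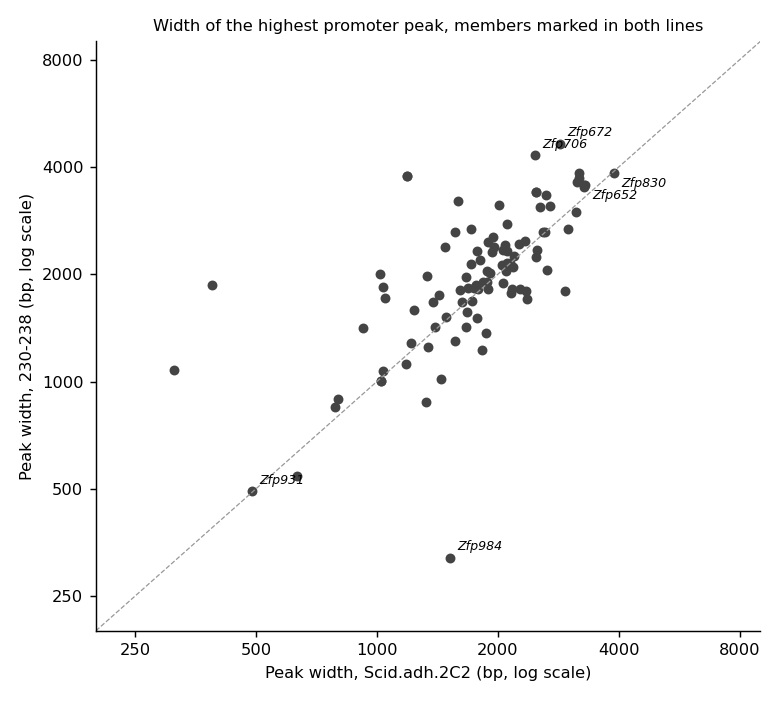
Width of the highest promoter peak in Scid.adh.2C2 (x axis) and 230-238 (y axis), both in bp on log scales, for the 99 members marked in both lines, with the line of equal width dashed. Most points lie close to this line, 68 of them above it, and *Zfp984*, with 2 peaks in 230-238, lies far below it at 1525 and 321 bp.

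Scid.adh.2C2 alone marked 12 members (7.02%, interval 4.06 to 11.9), against 3.28% of all protein-coding genes and 7.22% of *Zfp1* to *Zfp599*. The highest was *Zfp799*, with a peak of 40.3-fold and 1757 bp in Scid.adh.2C2, while the nearest peak in 230-238 was 33233 bp from its TSS. *Zfp606* had 38.8-fold, *Zfp870* 36.9-fold and *Zfp760* 36.4-fold. The peak shared by *Zfp668* and *Zfp646* had 34.4-fold, *Zfp974* had 27.2-fold and *Zfp763* 25.0-fold. So 6 of the 12 were above percentile 80 of marked promoters in the line that marked them, although *Zfp668* and *Zfp646* count the same peak. The share was not compared with that of other genes marked in Scid.adh.2C2 alone. *Zfp799*, *Zfp870* and *Zfp763* lie in the same chromosome 17 cluster, on both sides of *Zfp952*, which was marked in both lines. The rest were *Zfp759* (24.0-fold), *Zfp704* (21.3-fold), *Zfp938* (20.0-fold) and *Zfp663*, a weak narrow peak of 7.94-fold and 246 bp.

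The B-lineage line alone marked 7 members (4.09%, interval 2.00 to 8.21), against 5.96% of all and 7.73% of *Zfp1* to *Zfp599*. *Zfp608* had the highest peak of these, 31.2-fold (percentile 96.2) and 8041 bp wide (percentile 99.6 of the widths at marked promoters). In Scid.adh.2C2 the nearest peak was 1031508 bp from its TSS. ZFP608 is known in developing T cells as a repressor of the *Rag1* and *Rag2* genes. *Zfp609*, its paralog, was marked in both lines, at 19.3- and 18.7-fold. *Zfp775* followed with 21.2-fold, *Zfp770* with 20.8-fold and *Zfp677* with 17.7-fold. *Zfp867* (13.0-fold), *Zfp683* (12.6-fold) and *Zfp948* (6.16-fold) were low. *Zfp683* encodes HOBIT, a regulator of tissue-resident lymphocytes. Among genes marked in any line, 10.2% of the 118 members were marked in Scid.adh.2C2 alone and 5.93% in 230-238 alone, where the shares over all protein-coding genes were 6.37% and 11.6%. For *Zfp1* to *Zfp599* these shares were 8.75% and 9.38%.

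Members with a KRAB A box were marked in 77 of 123 cases in Scid.adh.2C2 (62.6%, interval 53.8 to 70.6) and in 71 in 230-238 (57.7%, interval 48.9 to 66.1). Of the 48 without the box 34 were marked in Scid.adh.2C2 (70.8%, interval 56.8 to 81.8) and 35 in 230-238 (72.9%, interval 59.0 to 83.4). The intervals of the groups overlap in both lines. KRAB members had narrower peaks where marked, with medians of 1724 against 2490 bp in Scid.adh.2C2 and 1824 against 2253 bp in 230-238. They were also more often repeated. Over promoters in which at least 90% of 32-base stretches occur once, 47 of 61 KRAB members (77.0%) and 34 of 47 others (72.3%) were marked in Scid.adh.2C2, and 42 of 61 (68.9%) and 35 of 47 (74.5%) in 230-238.

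Of KRAB members known for silencing retroviral sequences, *Zfp809*, whose protein binds the primer binding site of murine leukemia viruses, was marked in both lines, at 31.8-fold in Scid.adh.2C2 and 16.2-fold in 230-238. *Zfp932*, whose product represses endogenous retroviruses, was marked in both, at 23.2- and 15.9-fold. *Zfp819*, known from pluripotent cells, was marked in neither, and the nearest peaks were 26287 and 26303 bp from its TSS. *Zfp746* encodes PARIS, a substrate of the ubiquitin ligase Parkin, and had peaks of 26.6- and 12.5-fold.

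Of the members known for other functions, *Zfp652*, a partner of ETO family corepressors, was marked at 31.7-fold in Scid.adh.2C2 and 20.9-fold in 230-238, with peaks of 3300 and 3561 bp. *Zfp703*, an oncogene of breast cancer, had 33.1- and 22.1-fold, and *Zfp800* had 28.2- and 23.7-fold. *Zfp706*, which takes part in the exit of embryonic stem cells from self-renewal, had 26.8- and 12.6-fold, and *Zfp830* 19.8- and 23.4-fold. *Zfp704* was marked in Scid.adh.2C2 only, at 21.3-fold. *Zfp711*, an X-linked gene of intellectual disability, *Zfp750*, a regulator of epidermal differentiation, and *Zfp827*, which recruits the NuRD complex to telomeres, were marked in neither line. The KRAB A box was found in none of these 9.

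Genes for the proteins that work with KRAB zinc fingers were almost all marked. Of 17 corepressor genes 17 had a promoter peak in Scid.adh.2C2, with a median of 25.6-fold, and 16 in 230-238, with a median of 21.6-fold, where 45.5% and 48.2% of all protein-coding genes were marked. They were not compared with other broadly expressed genes. The exception was *Dnmt3b*, a de novo DNA methyltransferase. *Trim28* had 24.5-fold in Scid.adh.2C2 and 26.4-fold in 230-238, and *Setdb1* 13.8- and 8.67-fold. The 4 genes of the HUSH complex and its partners, *Tasor*, *Mphosph8*, *Pphln1* and *Morc2a*, which also silence transposable elements, were marked in both lines.

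The marked and unmarked members differed in the letters of their promoters. RefSeq promoters of 300 bases were found for 144 of the 171 members and 16539 of the 21951 protein-coding genes. The ratio of observed to expected CpG dinucleotides had a median of 0.64 in 89 members marked in both lines and of 0.38 in 41 marked in neither. For all protein-coding genes these medians were 0.80 and 0.26, so the gap was smaller among the members. For *Zfp1* to *Zfp599* they were 0.71 and 0.48, so a smaller gap was not particular to the members. The percentage of 32-base stretches that occur once had a median of 99.4% in the 99 members marked in both lines and 64.0% in the 53 marked in neither, and it was under 90% at 29.3% and 62.3% of them. For all protein-coding genes it was under 90% at 8.54% and 27.6%. Of 103 marked members with a RefSeq promoter, 96 had one that overlapped a peak of their own.

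The members stood farthest above other genes where the promoter holds few CpG dinucleotides, a difference that was described and not tested. Its size depended on how the low ratios were grouped. Where at least 90% of 32-base stretches occur once and the CpG ratio is 0.6 or more, 48 of 58 members were marked in Scid.adh.2C2 (82.8%, interval 71.1 to 90.4), against 73.9% of 7774 protein-coding genes, and 45 in 230-238 (77.6%, interval 65.3 to 86.4), against 76.7%. Where they occur once and the ratio is under 0.6, 21 of 32 members were marked in each line (65.6%, interval 48.3 to 79.6), against 25.4% and 28.9% of 6110 genes. Where the promoter is repeated and the ratio under 0.6, 20 of 44 members were marked in Scid.adh.2C2 (45.5%, interval 31.7 to 59.9) and 19 in 230-238 (43.2%, interval 29.7 to 57.8), against 9.62% and 10.8% of 2130 genes. The 10 members with a repeated promoter and a high CpG ratio were marked in 9 cases in each line (interval 59.6 to 98.2), against 78.1% and 77.9% of 525 genes, which lie within that interval. Unmarked members were found in each class, and *Zfp819* and *Zfp827* were unmarked with CpG ratios of 1.05 and 1.20. Ratios under 0.6 were not alike in members and all genes. Over repeated and unrepeated promoters alike, 7 members had a ratio under 0.2 and 69 one of 0.2 to 0.6, against 3543 and 4697 genes. From 0.2 to 0.6, 52.2% and 50.7% of members were marked in Scid.adh.2C2 and 230-238, against 30.4% and 33.7% of genes. Under 0.2, 5 of 7 members were marked in each line, against 9.20% and 11.5% of genes. *Zfp1* to *Zfp599* were not divided in this way.

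**Figure D5:**
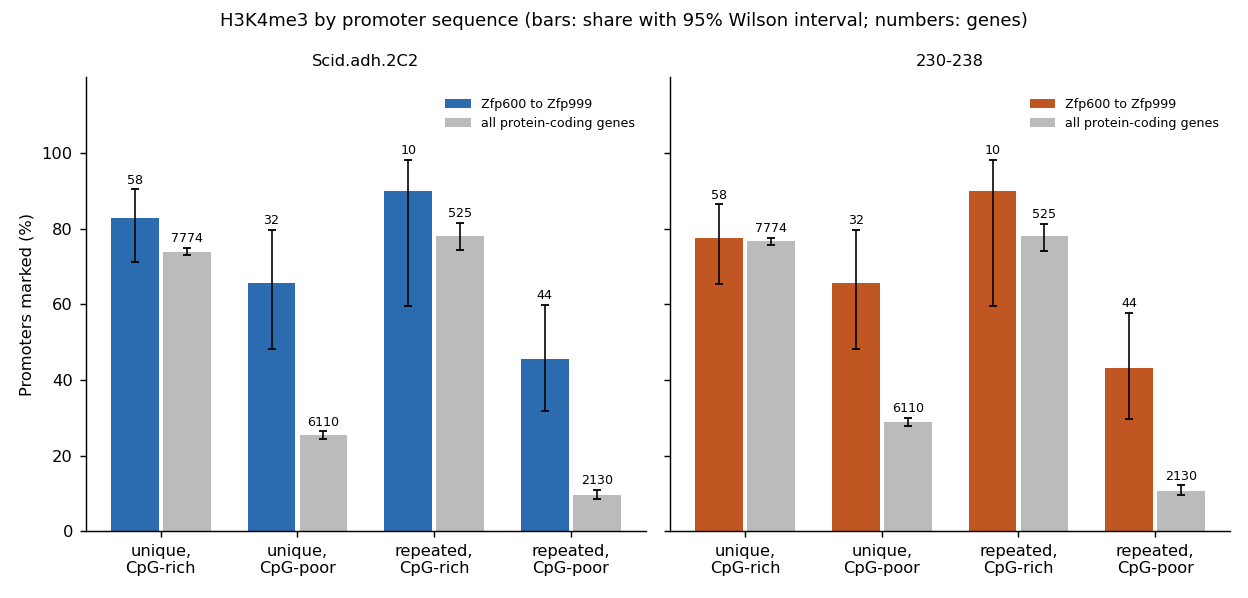
Share of promoters marked (y axis, percent, with 95% Wilson intervals) in Scid.adh.2C2 (left) and 230-238 (right), for the members (colored bars) and all protein-coding genes (gray bars), by promoter sequence. Unique means that at least 90% of 32-base stretches occur once, CpG-rich means a ratio of 0.6 or more, and the number over a bar is its number of genes. In the unique, CpG-poor class the members stand at 65.6% and all genes at 25.4% and 28.9%. The ratios within a class were not matched between members and all genes.

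Of 4 short motifs searched on both strands of the 300 bases, CCAAT was found in 60.4% of member promoters, against 38.8% of all protein-coding promoters, and CGGAAG, the core of ETS factor sites, in 34.7%, against 22.2%. GGGCGG, the GC box, was found in 43.1%, against 48.2%, and TATAAA in 2.78%, against 12.9%. In the promoters of *Zfp1* to *Zfp599* CCAAT was found in 39.7%, CGGAAG in 37.8%, GGGCGG in 44.9% and TATAAA in 8.97%, so that the share with CGGAAG was no higher in the members than in the lower numbered genes. Both CGGAAG and GGGCGG contain a CpG. Among members marked in both lines CCAAT was in 55.1%, GGGCGG in 47.2% and CGGAAG in 36.0%, and among those marked in neither they were in 68.3%, 29.3% and 24.4%. Members with near-identical promoters were counted separately. In *Zfp1* to *Zfp599* the shares were 45.8%, 46.7% and 41.1% of 107 promoters marked in both lines. They were 20.8%, 33.3% and 37.5% of 24 marked in neither, so CCAAT went the other way there. Over all protein-coding genes the shares were 40.3%, 67.5% and 37.8% where marked in both, and 37.8%, 28.1% and 8.12% where marked in neither. Among promoters marked in both lines, the members thus had CGGAAG about as often as all genes and GGGCGG less often. TATAAA was in 2.25% of members marked in both lines and in 5.85% of all genes so marked. In the promoters printed above, CCAAT is in *Zfp790*, *Zfp799*, *Zfp775*, *Zfp819*, *Zfp600* and *Zfp966*, marked and unmarked alike. A match is a description of the letters and says nothing about a factor.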

How the data were processed

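H3K4me3 ChIP-seq peaks of Scid.adh.2C2 and 230-238 were used, 1 combined list per line, so samples were compared as lines. The authors trimmed reads with Trim Galore 0.6.7, mapped them to mm10 with Bowtie2 2.4.4, called narrow peaks over the input with MACS2 2.2.7.1 (q-value 0.05), and retained the optimal IDR set (threshold 0.05). The deposited score, the fold enrichment and the −log10 p-value are the authors' values for the combined replicates; the −log10 q-values were not used. Input libraries entered only through peak calling, and 0 further value columns were present.

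Genes and TSSs came from GENCODE M21. The members, lists and tests were chosen with earlier results of these data known. Named members were the 6 highest and 4 lowest marked in both lines by mean percentile, up to 8 per line marked in 1 line, the 3 widest per line, marked members of clusters where 4 or fewer, and members with a known role. Others were named after their values were seen. Fingers and KRAB A boxes were found in translated GENCODE coding sequences, the box with a profile of 38 residues from 64 genes of *Zfp1* to *Zfp599* (pyhmmer 0.12.3, E-value under 0.001), where RefSeq proteins had been planned. Pairwise promoter identity came from global alignment (biopython 1.88). Marking was tested on simulated peaks. The marked counts, folds and widths were recomputed under 8 alternatives. Scripts ran in Python 3.11.15 with pandas 2.3.3, numpy 2.4.6 and matplotlib 3.10.9. Wilson 95% intervals cover counting error only.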

Additional observations from a re-analysis of the deposited data

How the results depend on the processing

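The marked counts moved little under the 8 alternatives (windows of 1000 and 5000 bp, peaks of at least 10-fold, IDR score 1000, equal numbers of peaks, summit inside the window, the most upstream TSS only, protein-coding transcripts only). Members marked in Scid.adh.2C2 ran from 106 to 113, in 230-238 from 102 to 107, in both lines from 95 to 100 and in neither from 51 to 58. Those marked in Scid.adh.2C2 only ran from 11 to 15 and in 230-238 only from 6 to 7. Median folds ran from 25.1 to 26.1 in Scid.adh.2C2 and from 20.8 to 21.7 in 230-238. Of the 12 members marked in Scid.adh.2C2 only, 10 were so in each alternative, with *Zfp663* lost at 1000 bp and at 10-fold and *Zfp759* lost with the most upstream TSS. Of the 7 marked in 230-238 only, 6 were, with *Zfp948* lost at 10-fold and with equal numbers of peaks. With 50-base stretches the median percentage occurring once was 100% in members marked in both lines and 79.7% in those marked in neither. With a smaller and a larger gap between neighbours the clusters of 3 or more held 85 and 111 members, against 101. No paired analysis was possible because the libraries of a line are combined in 1 list, and for the same reason no replicate could be left out. The depth of the libraries is unknown, so an absent peak is not shown to be absent H3K4me3.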
